A study of Homo sapiens with 8 samples.

Results

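The subject is the 2 h of recovery after heat shock in wild-type (WT) HCT116 cells, an established human colon cancer line. It was taken as the 2 libraries made at the end of heating against the 2 libraries made after recovery, which are 4 of the 8 libraries of the series. All genes were members, and 17471 of the 55075 genes in the tables passed the filter on low counts and were tested. Both WT groups were heated at 42 °C for 1 h. The heat shock group was taken then, and the recovery group was returned to 37 °C for 2 h first. The other 4 libraries came from HCT116 cells with a knockout (KO) of FBXW7 under the same schedule, again 2 per group, and served here for the shared estimate of spread and for 1 test of difference. Cells that were never heated were not analysed here, so a fall in recovery shows a level below that at the end of heating and not a return to an unheated level. RNA was sequenced as 50-base single reads from strand-specific libraries, and the labels allow either poly-A selection or removal of ribosomal RNA. For any one library the choice was not given in the sources used here. In bulk RNA, fewer cells expressing a gene and less RNA per cell cannot be told apart.

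In heated cells, proteins unfold and chaperones are drawn onto them, which frees heat shock factor 1 (HSF1) to bind heat shock elements in DNA and start transcription of chaperone genes. The chaperones made in turn hold HSF1 back, so the response is known to decline once the heat ends. Transcription of many other genes falls in heat, RNA processing is disturbed, and nuclear stress bodies form. FBXW7 recruits substrates to an SCF-type ubiquitin ligase, and HSF1 is among those known.

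Counts summed to 20248480 and 19979779 in WT heat shock and to 15507896 and 15654696 in WT recovery. The KO libraries ran from 24531569 to 34387618. Levels are given as CPM, counts relative to the scaled library size, and changes as log2 fold changes of recovery over heat shock with their standard error (SE). Passing the test means an adjusted p under 0.05 from the quasi-likelihood F test of edgeR, adjusted by Benjamini-Hochberg over all 17471 genes. Whether the 2 replicates were separately grown cultures was not given in the sources used here. As a result the p-values reflect library-to-library spread only, which may be technical. Marker genes of colon epithelium summed to 2244 to 2862 CPM in the WT libraries and those of immune cells to 0.102 to 0.122 CPM, with mesenchymal, endothelial and erythroid sums of 0.182 to 10.2 CPM. The epithelial sum was higher in both heat shock libraries than in both recovery libraries, but its members were split. KRT8, KRT18, KRT19 and CDX2 were lower in both recovery libraries, and EPCAM and CDH1 were higher. EPCAM had 247 and 287 CPM at heat shock and 339 and 339 CPM at recovery, and KRT8 1199 and 976 CPM and then 817 and 794 CPM. VIL1 overlapped, and CDH17 and LGALS4 had at most 2 reads per WT library. The part of this sum in the results was not tested. The column that holds the recovery counts was taken from the order of names in the deposited comparisons and from the sign of the authors' fold change. If that order were wrong, every sign here would turn.

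The WT recovery libraries stood apart from all others in processed pseudogenes, which are intronless copies of mRNAs that share sequence with their parent genes. Reads fell in 2782 and 2762 of 8814 annotated processed pseudogenes in WT recovery, against 1714 to 2369 in the other 6 libraries. The median level of the 820 that were tested was 1.15 and 1.13 CPM in WT recovery and 0.152 to 0.227 CPM in the others. Of these 820, 610 (74.4%) rose, 25 fell, and the median log2 change was 3.09. The filter on low counts keeps a gene with enough reads in any group, so pseudogenes could pass it through WT recovery alone. The levels and rises of the 820 are therefore partly set by that filter. Over all 8814, the share of counts was 0.476% and 0.741% in WT heat shock and 0.940% and 0.820% in WT recovery. In the KO libraries it was 0.234% to 0.656%. ANXA2P2, a copy of annexin A2 named after its values were seen, had 0.665 and 0.821 CPM at heat shock and 19.0 and 20.3 CPM at recovery. The 327 tested parent genes, matched by name, had a median change of -0.08, with 68 higher and 110 lower. Processed pseudogenes made up 596 of the 1478 genes that rose at least 2-fold. Among the 50 with a mean WT count of at least 200, the median was 0.51, with 29 higher and 8 lower. Their values are uncertain because reads can be split between copy and parent, and protein-coding genes are therefore the main subject below. The share of such reads that came from parent mRNAs was not tested.

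The change in WT recovery also moved with base composition. Over the 2046 tested protein-coding genes with under 40% GC in the longest transcript, the median log2 change was 0.34, with 51.8% higher and 7.09% lower. Over the 2099 genes with 55 to 60% GC it was -0.31, with 8.67% higher and 47.9% lower. In KO recovery the gradient ran the other way, from -0.42 to 0.26. For each gene list the counts were therefore repeated with offsets that remove trends in GC and transcript length, and with upper-quartile scaling. These are given where a count differs by more than 1.5 times or a median turns sign. The part of GC content in any single change was not tested.

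**Figure D1:**
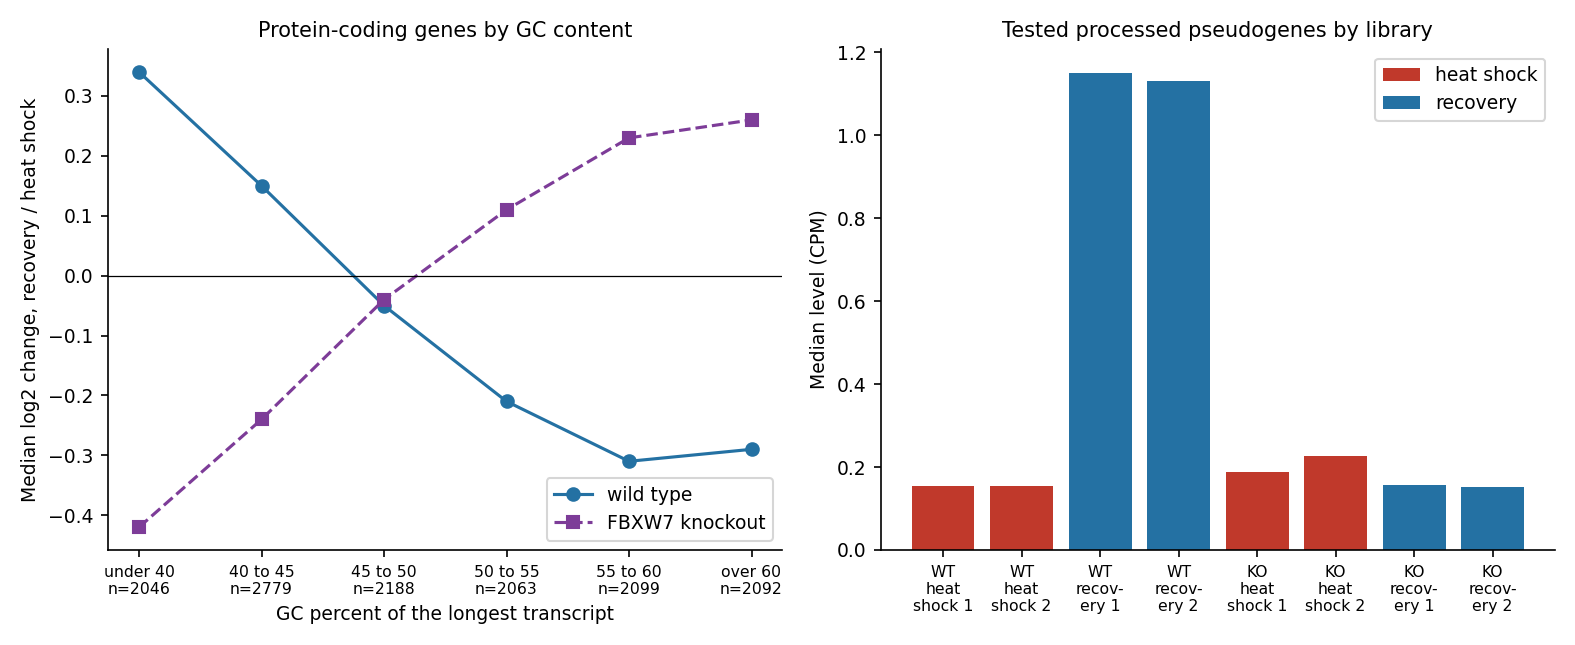
Left, the median log2 change in recovery of protein-coding genes, in bins of transcript GC percent, in wild-type and FBXW7 knockout cells. It falls from 0.34 to -0.29 in wild type and rises from -0.42 to 0.26 in the knockout. Right, bars give the median CPM of the 820 tested processed pseudogenes in each library, which is 1.15 and 1.13 in WT recovery and at most 0.227 elsewhere. Pseudogenes could pass the filter on low counts through WT recovery alone, so these levels are partly set by it.

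A large share of the genes tested differed between WT recovery and WT heat shock. The RNA selection of each library was not given, and its part in these differences was not tested. Of all genes tested, 4334 rose (24.8%) and 4540 fell (26.0%). At least 2-fold, 1478 rose (8.46%) and 658 fell (3.77%). Of 13267 protein-coding genes 3066 rose (23.1%) and 3970 fell (29.9%), and 512 (3.86%) and 458 (3.45%) did so at least 2-fold. Among the 9082 protein-coding genes with a mean WT count of at least 200, falls were more frequent than rises, with 3448 lower (38.0%) against 2223 higher (24.5%), and 312 (3.44%) against 164 (1.81%) at 2-fold. The median change of all genes was 0.01, and with upper-quartile scaling it was 0.10, with 5303 higher and 3686 lower. In that scaling, rises outnumbered falls. The 2 recovery libraries lay wholly above the 2 heat shock libraries for 37.9% of genes and wholly below for 37.5%. Of the genes that rose, 99.6% showed no overlap of the 4 libraries, as did 99.6% of those that fell.

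The replicate pairs gave like changes. Across genes, the log2 change of pair 1 correlated with that of pair 2 at r = 0.853, and at 0.902 over the 9646 genes with a mean WT count of at least 200, as a description over genes that share the same 4 libraries. The median absolute change over these genes was 0.40 in pair 1 and 0.31 in pair 2. The heat shock replicates differed most, with 19.0 as the chi-square of their counts divided by its degrees of freedom, against 2.43 between the recovery replicates. Leaving out either WT library numbered 1 left pair 2 as the only complete WT pair. The median change of all genes was then -0.00 without the heat shock library and -0.01 without the recovery library. Both runs rest on the same pair, with spread from the KO libraries, and are not separate checks. The same holds below where a result is given without one or the other WT library of a number. In the authors' deposited tables, which tested each pair by itself, 5191 genes were higher and 3031 lower in both pairs at a q under 0.05, while 98 passed as higher in pair 1 and lower in pair 2 and 75 the reverse.

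**Figure D2:**
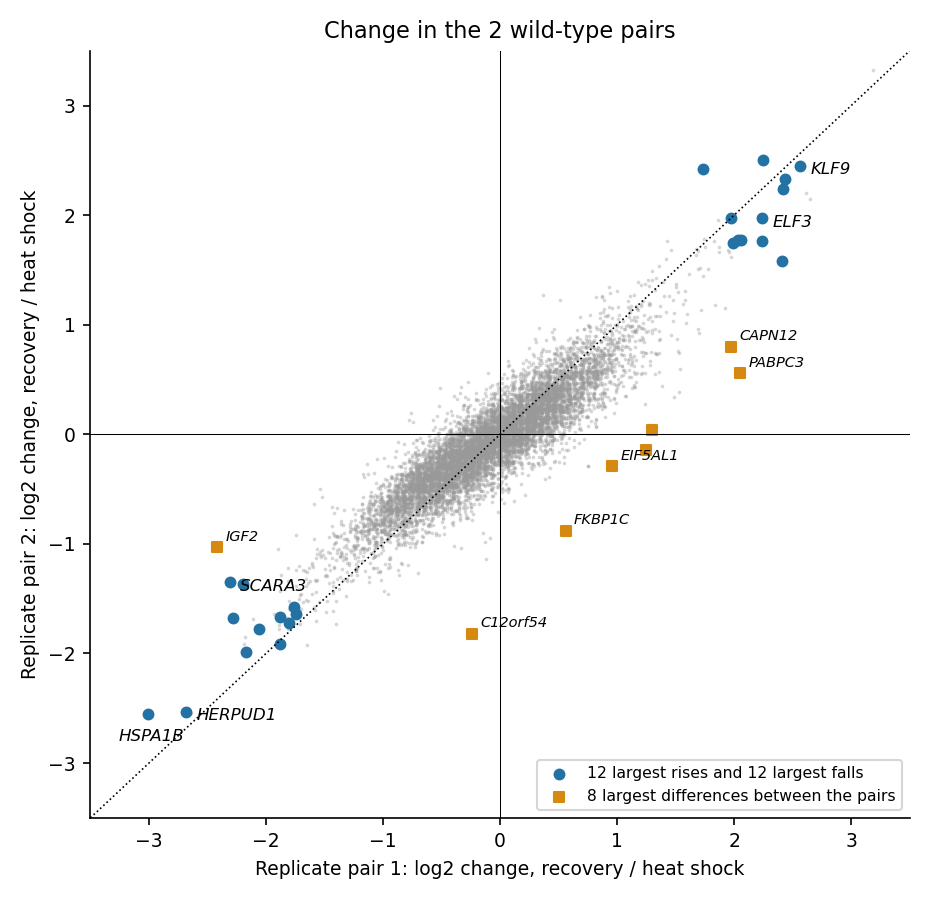
Log2 change in recovery in replicate pair 1 (horizontal) against pair 2 (vertical) for 9334 protein-coding genes with a mean of at least 10 CPM (grey). The 12 largest rises and 12 largest falls (blue) were chosen for no overlap of libraries, which fixes the same direction in both pairs. The 8 genes with the largest difference between pairs (orange) were chosen for that difference.

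The largest falls included HSPA1B, HERPUD1, ID2 and SDF2L1. By rule, the genes described here were the 12 protein-coding genes with the largest fall among those with a mean WT count of at least 200, no overlap of libraries and no overlapping coding gene or pseudogene. HSPA1B, an inducible HSP70, had 215 and 119 CPM at heat shock and 26.4 and 19.9 CPM at recovery, a 7.01-fold fall (log2 -2.81 ± 0.12, SE). The heat shock replicates were far apart, and the lower one still stood above both recovery libraries. HERPUD1, a part of ER-associated degradation, had 179 and 159 CPM at heat shock and 27.5 and 27.2 CPM at recovery, a 6.17-fold fall. ID2, an inhibitor of basic helix-loop-helix factors, went from 174 and 150 CPM to 38.4 and 37.5 CPM. The recovery replicates of HERPUD1 and ID2 were closer to each other than those at heat shock.

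The other falls in this set covered several compartments. SDF2L1, an ER folding factor, went from 56.6 and 40.3 CPM to 11.2 and 12.3 CPM. PPRC1, a coactivator of the PGC-1 family, went from 297 and 241 CPM to 70.6 and 69.9 CPM. URB2, a ribosome biogenesis factor, went from 56.6 and 52.8 CPM to 15.0 and 13.7 CPM. That none of these groups overlapped was required by the rule. DYNLL1, a dynein light chain, went from 224 and 206 CPM to 60.3 and 64.2 CPM, and PPIF, the mitochondrial cyclophilin D, from 173 and 149 CPM to 49.5 and 45 CPM. SCARA3, BANP, AKAP17A and JMJD6 fell, with log2 changes from -1.86 to -1.69. In SCARA3 and BANP the heat shock replicates were far apart, at 96.5 against 58.4 CPM and 50.8 against 31.5 CPM.

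The 12 largest rises, chosen by the same rule, included KLF9, BIRC3, ARRDC4, KLHL24 and ELF3. KLF9, a Kruppel-like transcription factor, had 5.43 and 6.67 CPM at heat shock and 34.5 and 38.7 CPM at recovery, a 6.06-fold rise (log2 2.60 ± 0.13, SE). BIRC3, an inhibitor of apoptosis and NF-kappaB target, had 3.17 and 4.0 CPM and then 19.3 and 22.2 CPM, a 5.79-fold rise. ARRDC4, an alpha-arrestin, had 6.65 and 5.85 CPM and then 33.5 and 35.4 CPM. A gap between the groups was required by the rule for each of the 12. KLHL24, a cullin 3 ligase adaptor, went from 5.58 and 6.62 CPM to 32.0 and 33.2 CPM. ELF3, an epithelial ETS factor, went from 25.8 and 31.9 CPM to 124 and 126 CPM, the highest recovery level of the 12. PTCH1, the Hedgehog receptor, went from 5.78 and 5.54 CPM to 24.1 and 23.2 CPM. GEM, PCMTD1, PNRC1, CCDC71L, BBS10 and FAM110C rose by 1.90 to 2.15, and PCMTD1 had the widest spread at heat shock, 4.86 against 8.98 CPM.

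**Figure D3:**
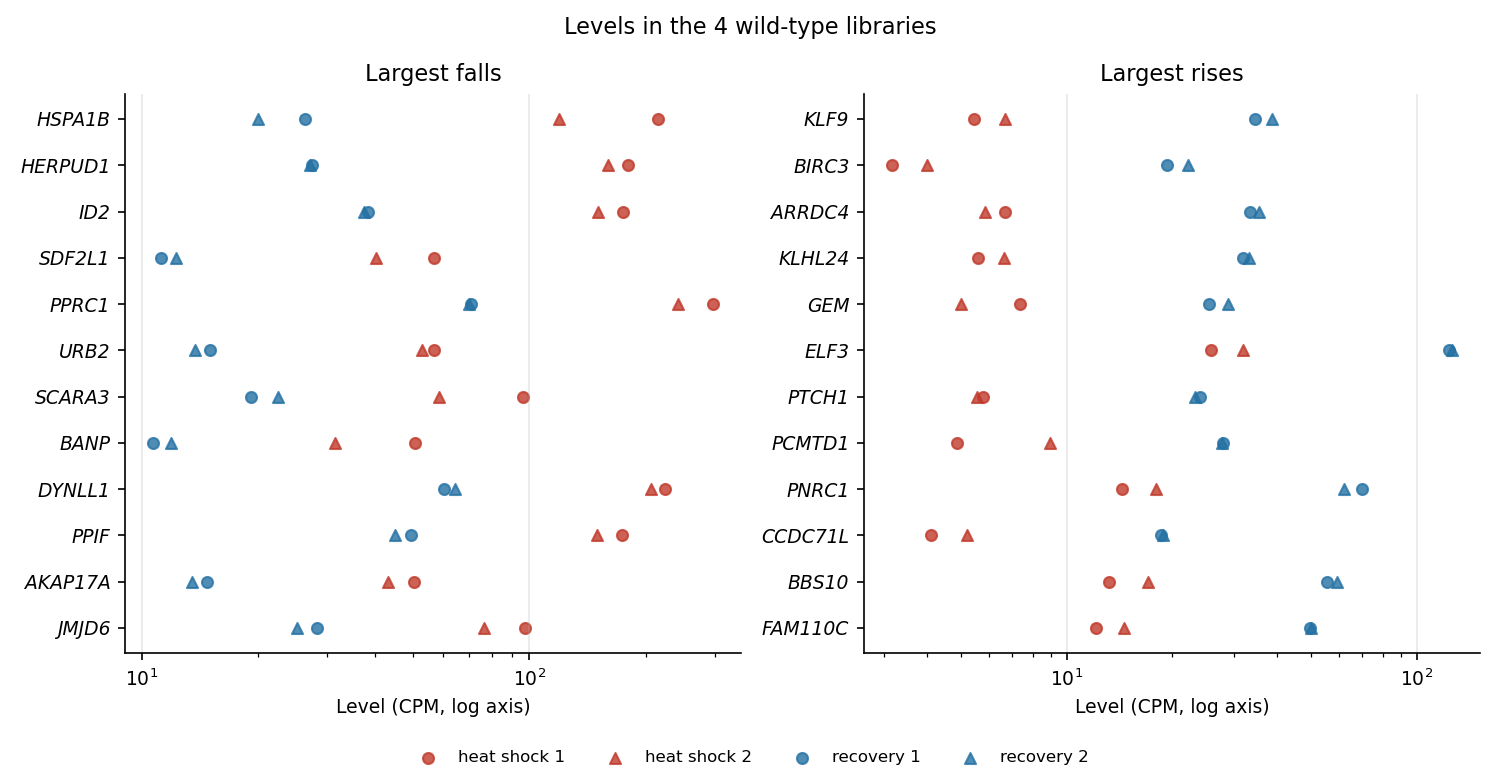
CPM (log axis) in the 4 wild-type libraries for the 12 largest falls (left) and the 12 largest rises (right) chosen by rule. Red marks are heat shock and blue marks recovery, circles replicate 1 and triangles replicate 2. The rule required that the colours not overlap for any of the 24 genes.

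Most genes of the HSP70, HSP110 and HSP90 lists fell, with exceptions among the co-chaperones. Among all protein-coding genes 29.9% fell and 23.1% rose, and 38.0% and 24.5% did with a mean WT count of at least 200. Of 12 tested HSP70 and HSP110 genes, 8 fell, 1 rose and 3 did not pass, with a median log2 change of -0.63. HSPA8, the constitutive HSP70, had 5608 and 4203 CPM at heat shock and 1748 and 1780 CPM at recovery, a 2.75-fold fall. HSPH1, an HSP110 nucleotide exchange factor, went from 469 and 374 CPM to 178 and 196 CPM. HSPA1A, near-identical to HSPA1B, was counted at 2.05 and 0.923 CPM and then 0.304 and 0.237 CPM, and how reads were split between the 2 copies was not given in the sources used here. HSPA13, a microsomal family member, was the 1 that rose (0.36), and with GC and length offsets it gave -0.05 and did not pass. Of 22 HSP90 genes and co-chaperones, 15 fell and 3 rose (median -0.33), and 6 rose with upper-quartile scaling. STIP1, which joins HSP70 to HSP90, went from 841 and 679 CPM to 379 and 381 CPM, and AHSA1, an activator of the HSP90 ATPase, from 353 and 266 CPM to 146 and 154 CPM. The HSP90 genes themselves, named after their values were seen, moved little: HSP90AA1 gave -0.28 ± 0.11 (adjusted p = 0.0377 in edgeR) and HSP90AB1 -0.29 ± 0.11 (adjusted p = 0.0311). The co-chaperones AHSA2, NUDCD1 and NUDCD2 rose by 0.31 to 0.99.

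The DNAJ co-chaperones, which bring substrates to HSP70, were mixed. In the lists of this paragraph the shares lower were near those of protein-coding genes, 29.9% of all and 38.0% at a mean WT count of at least 200. Of 41 tested, 13 rose and 11 fell, with a median of 0.05 that turned to -0.07 with GC and length offsets. DNAJB1, the heat-inducible HSP40, went from 505 and 345 CPM to 116 and 107 CPM, a 3.75-fold fall, and its span overlaps TECR. DNAJA1 went from 542 and 474 CPM to 169 and 164 CPM. DNAJC10, an ER disulfide reductase, rose from 39.5 and 44.5 CPM to 74.2 and 73.9 CPM. Of 14 small heat shock proteins, BAG proteins and exchange factors, 5 fell and 2 rose (median -0.14). BAG3, an HSP70 exchange factor, went from 283 and 171 CPM to 77.0 and 70.2 CPM. Its heat shock replicates were far apart, as with HSPA1B, and replicate 1 was the higher in both. Among 25 adaptors of proteotoxic stress 11 fell and 5 rose (median -0.19). VCP, the segregase, went from 422 and 324 CPM to 186 and 192 CPM. The 5 that rose were autophagy receptors and a zinc finger adaptor, namely OPTN (0.83), TAX1BP1 (0.66), CALCOCO2, NBR1 and ZFAND5.

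The promoters of 3 chaperone genes that fell are shown because they hold a perfect 3-unit heat shock element, the site HSF1 binds. Another chaperone gene with the element, DNAJB6, had 75.6 and 67.5 CPM and then 67.0 and 66.7 CPM and did not pass (-0.10 ± 0.09). RefSeq promoter windows (GRCh38.p14, 250 bases before to 50 after the start) matched 10615 of the 13267 tested protein-coding genes. The motif searched was GAA, any 2 bases, TTC, any 2 bases and GAA, on both strands, and capitals mark each match. HSPA8 (chr11:123062087-123062386, minus strand) held 2 matches, DNAJA1 (chr9:33025023-33025322, plus strand) 1, and CHORDC1 (chr11:90223000-90223299, minus strand) 3 that overlap each other.
HSPA8: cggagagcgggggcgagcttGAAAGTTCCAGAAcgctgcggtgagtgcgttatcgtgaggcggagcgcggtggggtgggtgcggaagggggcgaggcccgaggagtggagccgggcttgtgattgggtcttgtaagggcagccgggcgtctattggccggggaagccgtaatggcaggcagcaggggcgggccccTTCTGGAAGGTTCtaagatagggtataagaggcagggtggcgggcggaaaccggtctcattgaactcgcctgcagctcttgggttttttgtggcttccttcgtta
DNAJA1: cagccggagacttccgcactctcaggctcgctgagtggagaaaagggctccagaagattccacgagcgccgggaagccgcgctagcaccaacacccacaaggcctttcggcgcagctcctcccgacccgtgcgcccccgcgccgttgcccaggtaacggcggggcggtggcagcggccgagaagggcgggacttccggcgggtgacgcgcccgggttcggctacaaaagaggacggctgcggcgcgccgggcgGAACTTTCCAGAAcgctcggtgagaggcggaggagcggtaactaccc
CHORDC1: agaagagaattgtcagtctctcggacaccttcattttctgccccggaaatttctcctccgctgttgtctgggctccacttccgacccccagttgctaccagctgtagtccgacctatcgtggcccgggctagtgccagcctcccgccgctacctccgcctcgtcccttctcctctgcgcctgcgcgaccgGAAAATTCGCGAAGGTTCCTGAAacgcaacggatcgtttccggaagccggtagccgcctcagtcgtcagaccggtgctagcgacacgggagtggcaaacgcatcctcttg
Over all promoters 37 (0.349%) held the motif, and 14 of these genes fell and 3 rose. Among all protein-coding genes tested, 29.9% fell and 23.1% rose, and 38.0% and 24.5% did with a mean WT count of at least 200. Of 368 promoters of protein-coding genes that fell at least 2-fold, 6 (1.63%) held the motif. Of 399 that rose at least 2-fold, 1 did (0.251%). CHORDC1, an HSP90-binding protein named after its value was seen, fell less than the other 2, from 91.5 and 76.0 CPM to 60.7 and 61.6 CPM. The windows of HSPA1B, HSPH1 and DNAJB1 did not hold these letters, which says nothing of HSF1 there.

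Genes of folding in the endoplasmic reticulum (ER) moved in both directions. Of 39 tested, 16 fell and 9 rose (median -0.19), and 5 fell at least 2-fold. Among protein-coding genes with a mean WT count of at least 200, 38.0% fell and 24.5% rose, near the shares of this list. At least 2-fold, 3.44% of those genes fell. HSPA5, the ER HSP70 also known as BiP, had 1317 and 1198 CPM at heat shock and 605 and 601 CPM at recovery, a 2.08-fold fall. XBP1, a transcription factor of the unfolded protein response, went from 89.9 and 100 CPM to 36.1 and 39.3 CPM. DNAJB9, an ER co-chaperone whose span overlaps PNPLA8 and THAP5, went from 35.3 and 41.6 CPM to 10.9 and 10.6 CPM. All 3 were named for their low p, which favours groups that lie apart. Of 32 genes of the SEC61 translocon and the COPI and COPII coats, 10 fell and 6 rose (median -0.09), and SEC61A1 fell by 0.77 on the log2 scale. The number higher was 3 with GC and length offsets and 10 with upper-quartile scaling.

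The promoters of HSPA5 (chr9:125241294-125241593, minus strand) and XBP1 (chr22:28800520-28800819, minus strand) are shown for the ER stress element, searched as CCAAT, any 9 bases and CCACG on both strands and marked in capitals.
HSPA5: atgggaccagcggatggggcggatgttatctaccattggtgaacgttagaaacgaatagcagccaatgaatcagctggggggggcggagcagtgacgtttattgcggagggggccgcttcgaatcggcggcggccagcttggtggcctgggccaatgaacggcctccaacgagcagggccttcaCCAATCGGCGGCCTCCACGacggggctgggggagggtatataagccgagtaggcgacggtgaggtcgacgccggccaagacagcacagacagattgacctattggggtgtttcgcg
XBP1: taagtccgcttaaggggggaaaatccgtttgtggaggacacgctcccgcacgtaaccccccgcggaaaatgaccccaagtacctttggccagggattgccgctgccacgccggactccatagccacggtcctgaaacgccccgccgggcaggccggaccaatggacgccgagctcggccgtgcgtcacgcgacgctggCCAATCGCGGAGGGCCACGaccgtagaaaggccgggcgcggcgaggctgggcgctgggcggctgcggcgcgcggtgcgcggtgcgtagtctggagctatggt
In RefSeq windows this element was found for 8 of 36 promoters of the ER folding list (22.2%) and for 15 of all 10615 (0.141%). The 8 were CALR, CANX, CRELD2, ERO1LB, HSP90B1, HSPA5, SERP1 and XBP1. Of these 8 genes 4 fell and 2 rose, and of all 15 genes with the element 6 fell and 4 rose. The element was in 3 of 368 promoters of protein-coding genes that fell at least 2-fold (0.815%) and in 0 of 399 that rose at least 2-fold. These are few genes. HERPUD1 and SDF2L1, which fell more than HSPA5, did not hold these letters in the window.

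Falls outnumbered rises in the lists of RNA polymerase, elongation and Mediator genes, beside 29.9% lower among all protein-coding genes and 38.0% among those with a mean WT count of at least 200. Of 33 RNA polymerase subunit genes 23 fell and 5 rose (median -0.52). POLR2A, the largest subunit of RNA polymerase II, had 1065 and 742 CPM at heat shock and 416 and 420 CPM at recovery. POLR2L, shared by the 3 nuclear polymerases, went from 211 and 188 CPM to 60.3 and 62.5 CPM, the largest fall of the list, and its span overlaps CD151. POLR1D, POLR2K, POLR2M, POLR3G and ZNRD1 were the 5 that rose, by at most 0.67, and 3 members rose with GC and length offsets. Among 26 elongation factors 15 fell and 7 rose (median -0.36). MEPCE, which holds the kinase P-TEFb in its 7SK complex, went from 117 and 102 CPM to 36.8 and 35.5 CPM. CDK12, a kinase of the polymerase tail, went from 153 and 150 CPM to 73.2 and 75.9 CPM, and BRD2, a bromodomain reader, from 590 and 500 CPM to 266 and 263 CPM. Of 33 Mediator genes 14 fell and 5 rose (median -0.19), and the kinase module members CDK8, CDK19 and CCNC were among those that rose. With GC and length offsets 3 rose and 16 fell, and in DESeq2 9 fell.

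Falls also outnumbered rises among splicing, helicase and transport genes, as among all protein-coding genes, and many members did not pass. Of all protein-coding genes 29.9% fell and 23.1% rose, and 38.0% and 24.5% did at a mean WT count of at least 200. Of 49 core spliceosome genes 24 fell, 5 rose and 20 did not pass (median -0.27), led by SF3B5 (-0.96 ± 0.10), SF3B4 (-0.96 ± 0.10) and PRPF31 (-0.81 ± 0.10). The number higher was 3 with GC and length offsets and 10 with upper-quartile scaling. Of 51 DEAD and DEAH box helicases 28 fell and 10 rose (median -0.32). DDX31, a nucleolar helicase, went from 46.0 and 41.7 CPM to 18.3 and 16.4 CPM, while DHX32, whose span overlaps BCCIP, rose from 43.0 and 44.4 CPM to 89.8 and 91.2 CPM. Of 56 nucleoporin and transport receptor genes 26 fell, 5 rose and 25 did not pass (median -0.16), and 12 rose with upper-quartile scaling. KPNA2, an importin alpha, went from 552 and 492 CPM to 200 and 215 CPM, and RANGAP1, the activator of the Ran GTPase, from 251 and 177 CPM to 86.8 and 81.6 CPM. The receptors IPO7 and XPOT rose by 0.68 and 0.67. The 22 hnRNP genes gave 7 lower and 4 higher (median -0.08), with 12 lower and 2 higher under GC and length offsets and a median of 0.02 under upper-quartile scaling.

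DNA replication genes gave the largest share of falls of the 52 lists. Of 47 genes of licensing and the fork, 36 fell, 3 rose and 8 did not pass (median -0.64), and with GC and length offsets 40 fell and 1 rose. MCM5, a subunit of the replicative helicase, had 465 and 325 CPM at heat shock and 152 and 144 CPM at recovery, a 2.63-fold fall. FEN1, the flap endonuclease, went from 143 and 141 CPM to 60.5 and 60.2 CPM, and its span overlaps TMEM258 and FADS2. ORC6 went from 41.7 and 44.6 CPM to 17.1 and 17.4 CPM, and CDC6, which loads the helicase, from 184 and 196 CPM to 89.2 and 81.7 CPM. FEN1, ORC6 and CDC6 had nearly equal heat shock replicates. The 3 that rose were ORC2, RFC1 and RFC4, by 0.31 to 0.38. Without one or the other WT library numbered 1 none of the 3 passed.

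Of 38 cyclins, cyclin-dependent kinases and inhibitors, 15 fell and 13 rose, and the median of -0.02 turned to 0.07 with upper-quartile scaling. CCNG2, an unconventional cyclin linked to arrest, had 7.47 and 10.8 CPM at heat shock and 49.6 and 49.8 CPM at recovery, a 5.47-fold rise. The CDK inhibitor CDKN1B, named after its value was seen, rose from 22.5 and 24.5 CPM to 44.0 and 40.6 CPM. CDC25A, a phosphatase that activates cyclin-dependent kinases, went from 41.4 and 38.8 CPM to 11.4 and 10.9 CPM. E2F1 and E2F8, factors of the replication programme, fell (-1.05 ± 0.11 and -1.0 ± 0.10), as did CCNF (-1.25 ± 0.10). Of 57 DNA repair genes 19 fell and 8 rose (median -0.08, and 0.02 with upper-quartile scaling), with EXO1 at -0.89 and the kinase ATM at 0.73. Of 33 kinesins 11 fell and 7 rose (median -0.11), with KIF18B at -1.25 ± 0.11 and KIF27 at 1.21 ± 0.20.

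Of 17 tubulin genes 10 fell and 1 rose. Their median of -0.89 was the lowest of the 52 lists, but with GC and length offsets it was -0.69, above the -0.72 of HSP70 and HSP110 genes. TUBB4B, a beta-tubulin, had 724 and 568 CPM at heat shock and 158 and 151 CPM at recovery, a 4.14-fold fall, with the gene FAM166A overlapping its span. TUBB6 went from 200 and 150 CPM to 60.2 and 55.8 CPM. TUBA1B, an abundant alpha-tubulin, went from 837 and 793 CPM to 357 and 334 CPM. Family members share sequence, so the split of reads among them is uncertain. These members were named for their low p, which favours groups that lie apart. The 1 that rose was TUBE1, epsilon-tubulin of the centriole (0.52 ± 0.11), which gave 0.08 with GC and length offsets and then did not pass. Among 39 actin genes and regulators 19 fell and 9 rose (median -0.20), and 4 rose with those offsets. ACTB, beta-actin, went from 4189 and 3292 CPM to 1927 and 1796 CPM, and EZR, which ties actin to the membrane, from 2756 and 2343 CPM to 1491 and 1435 CPM.

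Among nuclear genes of mitochondria and of glycolysis, falls outnumbered rises. The shares lower were 29.9% of all protein-coding genes and 38.0% of those with a mean WT count of at least 200. Of 76 mitochondrial ribosomal protein genes 42 fell and 8 rose (median -0.33), and 4 rose with GC and length offsets and 14 with upper-quartile scaling. MRPS2 went from 226 and 175 CPM to 92.3 and 83.5 CPM, and MRPS26 from 58.4 and 49.7 CPM to 24.1 and 23.6 CPM. Of 37 genes of respiratory complex I and its assembly 22 fell and 5 rose (median -0.39), and 3 rose with GC and length offsets and 8 with upper-quartile scaling. NDUFB10 went from 235 and 170 CPM to 99.6 and 99.2 CPM. Of 19 mitochondrial chaperones and proteases 9 fell and 2 rose (median -0.23), with PHB, a prohibitin, at -0.95 ± 0.11 and the protease subunit CLPX at 0.53 ± 0.09. Of 30 genes of glycolysis and the pentose phosphate pathway 18 fell and 4 rose (median -0.37). TPI1 went from 998 and 789 CPM to 465 and 493 CPM, and PFKL, a phosphofructokinase, from 192 and 146 CPM to 93.3 and 91.6 CPM. The glucose transporter SLC2A3 was the exception in size, rising from 0.614 and 0.718 CPM to 5.65 and 4.86 CPM, and HK2, RPE and PFKFB4 rose by 0.51 to 0.60.

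The 10 protein-coding genes with the highest levels per kilobase of transcript were all encoded by the mitochondrial genome. The 4 given here changed by at most 0.60 on the log2 scale, which does not bound the others. MT-ATP8, another of the 10, was also among the 8 genes with the largest difference between the pairs. MT-CO3 changed sign when 1 library was left out. MT-CO2 had 7138 and 6824 CPM at heat shock and 4735 and 4479 CPM at recovery, a log2 change of -0.60 ± 0.13. MT-CYB fell by 0.45 ± 0.11 and MT-ND3 rose by 0.43 ± 0.12. MT-CO1 had 6472 and 8073 CPM and then 7534 and 6937 CPM, groups that overlapped, with a change of 0.00 ± 0.12 (adjusted p = 1.00 in edgeR). Without one or the other WT library numbered 2 MT-CYB gave -0.30 and -0.29 and did not pass. Without one or the other WT library numbered 1 MT-ND3 gave 0.14 and 0.15 and did not pass.

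Circadian clock genes had a median of 0.58, the highest of the 52 lists without offsets and with them (0.46). The clock is a feedback loop in which CLOCK and its partner drive PER, CRY and NR1D1 genes whose products then repress them. Of 19 tested members 11 rose, 1 fell and 7 did not pass, and 11 and 1 did so with GC and length offsets. DBP, an output transcription factor whose span overlaps SPHK2, had 6.71 and 8.72 CPM at heat shock and 43.5 and 41.8 CPM at recovery, a 5.54-fold rise. PER1, a repressor of the loop, went from 26.5 and 22.7 CPM to 64.4 and 61.4 CPM. NR1D1, encoding REV-ERB alpha with a span that overlaps THRA, went from 90.7 and 71.7 CPM to 167 and 157 CPM. BHLHE40 and BHLHE41, repressors that bind E-boxes, went from 77.6 and 65.0 CPM to 142 and 131 CPM and from 2.15 and 2.56 CPM to 6.50 and 8.84 CPM. CLOCK itself was the 1 that fell (-0.24 ± 0.09, adjusted p = 0.0349 in edgeR), a call lost when any 1 of the 8 libraries was left out and with upper-quartile scaling. The E-box letters CACGTG were in the promoter windows of BHLHE40, BHLHE41, PER1 and TEF, 4 of 18 (22.2%), against 9.94% of all windows. Of all 1055 protein-coding genes with these letters, 393 fell and 222 rose. The letters were in 6.27% of windows of genes that rose at least 2-fold and in 14.9% of those that fell at least 2-fold.

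Kruppel-like factors also rose more often than they fell. Of 14 tested, 7 rose and 1 fell (median 0.39), and with GC and length offsets 8 rose and 1 fell. KLF9 is given above. KLF15, a metabolic regulator, had 0.512 and 0.564 CPM at heat shock and 4.31 and 3.68 CPM at recovery, on few reads at heat shock. KLF7 went from 18.8 and 23.1 CPM to 40.4 and 40.7 CPM, and KLF3 and KLF11 rose by 0.71 and 0.64. KLF5, a growth-promoting epithelial factor, was the 1 that fell (-0.37 ± 0.10), and it gave -0.27 and -0.26 without one or the other WT library numbered 1, where it did not pass.

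Genes of NF-kappaB and its cytokine targets moved in both directions, beside 23.1% higher and 29.9% lower among all protein-coding genes. NF-kappaB is held in the cytoplasm by inhibitors and, when they are degraded, turns on cytokines, survival genes and its own inhibitors. Of 25 factors, inhibitors and adaptors 9 rose and 11 fell (median -0.01). With GC and length offsets 6 fell and the median was 0.07, and with upper-quartile scaling 6 fell and it was 0.08. Beside BIRC3, BCL3, an inhibitor-like coactivator, went from 12 and 9.69 CPM to 27.8 and 26.3 CPM. The adaptor TRAF2 went from 26.0 and 19.6 CPM to 11.3 and 10.3 CPM, and TRAF6 fell too (-1.0). TNIP2 went from 38.0 and 36.6 CPM to 19.6 and 19.0 CPM. Of 15 chemokines and cytokines 5 rose and 2 fell (median 0.22), and 1 rose among those with a mean count of at least 50. That was the interleukin IL18, which went from 54.5 and 73.1 CPM to 135 and 141 CPM. CXCL1, a neutrophil chemokine, had 0.154 and 0.308 CPM and then 0.912 and 1.36 CPM, and IL8 0.256 and 0.410 CPM and then 1.58 and 1.25 CPM. CXCL3 had 0.154 and 0.0513 CPM and then 0.669 and 0.830 CPM, and DESeq2 did not call it. These 3 chemokines rest on a few reads per library. MIF and VEGFA were the 2 that fell, by 0.43 and 0.36, and 1 fell with GC and length offsets.

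The promoters of BIRC3 (chr11:102317234-102317533, plus strand) and CXCL1 (chr4:73869143-73869442, plus strand) are shown for a kappaB-like motif of GGG, any 3 bases and TTCC on both strands, with matches in capitals. CXCL1 holds 1 match on each strand, which overlap.
BIRC3: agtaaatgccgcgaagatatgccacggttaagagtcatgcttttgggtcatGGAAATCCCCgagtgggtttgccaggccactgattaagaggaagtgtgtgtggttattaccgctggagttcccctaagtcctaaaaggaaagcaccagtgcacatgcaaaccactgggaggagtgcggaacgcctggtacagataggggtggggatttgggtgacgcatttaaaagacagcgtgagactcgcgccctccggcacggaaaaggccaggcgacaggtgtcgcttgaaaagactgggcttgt
CXCL1: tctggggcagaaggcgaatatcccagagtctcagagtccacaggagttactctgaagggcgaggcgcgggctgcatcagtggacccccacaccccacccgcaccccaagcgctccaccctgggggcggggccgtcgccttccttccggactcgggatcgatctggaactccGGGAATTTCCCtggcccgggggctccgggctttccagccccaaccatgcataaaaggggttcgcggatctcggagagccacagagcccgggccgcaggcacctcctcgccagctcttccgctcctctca
In RefSeq windows the motif was found in 7 of 20 promoters of the NF-kappaB list (35.0%) and 4 of 10 of the cytokine list, against 7.5% of all 10615. Among protein-coding genes that rose at least 2-fold 6.02% of windows held it, and among those that fell 6.25%. CXCL1, CXCL2, CXCL3 and IL32 were the 4 cytokines, of which 2 rose and 0 fell. Of the 7 genes of the NF-kappaB list with the motif, 3 rose and 2 fell. Of all 796 genes with it, 178 rose and 234 fell.

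Survival, autophagy and mRNA decay genes moved in both directions, as did all protein-coding genes (23.1% higher and 29.9% lower). Of 21 BCL2 family genes 10 rose and 4 fell (median 0.24), and 5 rose without one or the other WT library numbered 1 and in DESeq2. With GC and length offsets 2 fell, as with upper-quartile scaling. BMF, a BH3-only promoter of cell death, had 0.205 CPM in each heat shock library and 4.44 and 4.03 CPM at recovery, a log2 change of 4.33 ± 0.42 on few reads at heat shock. BBC3, encoding PUMA, went from 7.63 and 9.59 CPM to 17.3 and 15.9 CPM, and BNIP3L, a mitophagy receptor, from 41.4 and 47.0 CPM to 75.4 and 76.5 CPM. BID, BAX, BCL2L1 and MCL1 fell by 0.28 to 0.72. Of 35 autophagy genes 14 rose and 5 fell (median 0.07). RB1CC1, a part of the initiating kinase complex, went from 50.0 and 60.6 CPM to 114 and 121 CPM, and GABARAPL1, an ATG8 protein, from 20.2 and 20.4 CPM to 36.9 and 39.7 CPM. C12orf44, another part of the same complex, went from 42.8 and 31.1 CPM to 14 and 12.1 CPM. Of 48 mRNA decay genes 17 fell and 16 rose, and the median of 0.08 turned to -0.06 with GC and length offsets. The decay promoters PNRC1, BTG1 and ZFP36 rose by 2.03, 1.37 and 1.16, and SMG5 and TOB2 fell by 1.09 and 0.94.

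Members of the signalling lists moved in both directions. Of all protein-coding genes 23.1% rose and 29.9% fell, and the MYC and BMP lists below were near these shares. In the MYC and MAX network, 3 of 12 rose and 4 fell (median -0.17), and with GC and length offsets 5 rose and 5 fell and the median was 0.07. MYC went from 802 and 751 CPM to 266 and 251 CPM. MXI1, an antagonist of MYC, went from 40.8 and 50.4 CPM to 110 and 110 CPM, and MXD1 and MYCL1 also rose, by 0.82 and 1.68. Of 19 Wnt feedback and target genes 9 fell and 1 rose (median -0.36), and 6 fell and 3 rose with GC and length offsets. AXIN2, a feedback inhibitor, went from 16.5 and 12.3 CPM to 5.65 and 4.21 CPM, and DKK1, a secreted antagonist, from 348 and 376 CPM to 212 and 204 CPM. The receptor LGR4 was the 1 that rose without those offsets (0.74 ± 0.15). Among 33 BMP, TGF-beta and ID genes 9 rose and 9 fell (median 0.00). Beside ID2, ID3 went from 70.5 and 68.4 CPM to 23.8 and 23.4 CPM and the ligand BMP4 from 56.7 and 39.0 CPM to 17.6 and 15.4 CPM. SKIL, a repressor of SMAD signalling, went from 15.8 and 20.6 CPM to 44.9 and 48.9 CPM. Without one or the other WT library numbered 1, 3 members of this list rose.

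Of 12 EGFR family genes 6 rose and 1 fell (median 0.28), and 4 and 0 did so with GC and length offsets. For this and the next lists, the shares of all protein-coding genes were 23.1% higher and 29.9% lower. AREG, a ligand, went from 5.48 and 4.41 CPM to 11.7 and 10.1 CPM, EREG from 544 and 619 CPM to 792 and 845 CPM, and the receptor EGFR from 117 and 110 CPM to 163 and 167 CPM. EREG gave 0.14 with those offsets and did not pass. ERBB2 was the 1 that fell (-0.28 ± 0.10), and with the offsets it gave 0.01. Of 18 DUSP phosphatases, which switch off MAP kinases, 6 rose and 4 fell (median 0.06): DUSP5 went from 92.8 and 69.8 CPM to 177 and 178 CPM and DUSP2 from 8.60 and 9.75 CPM to 2.86 and 2.85 CPM. Of 23 AP-1, EGR and SRF genes 7 rose and 4 fell (median 0.24), and 11 rose with GC and length offsets. JUNB went from 52.5 and 49.9 CPM to 107 and 91.4 CPM, and SRF, a factor that drives early genes, from 68.8 and 54.0 CPM to 32.8 and 33.5 CPM. FOS, which fell from 24.4 and 17.4 CPM to 14.5 and 14.4 CPM, did not pass without one or the other WT library numbered 1.

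Long non-coding RNAs and paraspeckle genes were read with care, since spans overlap. NEAT1 is the RNA scaffold of paraspeckles, nuclear bodies that hold SFPQ and related proteins. NEAT1 had 11.2 and 15.0 CPM at heat shock and 50.1 and 62.5 CPM at recovery, a 4.31-fold rise. MALAT1 went from 180 and 232 CPM to 358 and 413 CPM. Of the paraspeckle protein genes, SFPQ went from 724 and 638 CPM to 259 and 261 CPM and RBM14 from 99.6 and 90.8 CPM to 55.5 and 48.3 CPM. In this list of 10, 3 rose and 6 fell. LINC00847 rose by 1.33 and the antisense genes DLGAP1-AS2, BCAN-AS2, WAC-AS1 and HOXB-AS3 by 1.27 to 1.68. BDNF-AS, RBM25-AS1, MMP25-AS1 and NRAV fell by 1.53 to 1.70. NRAV overlaps DYNLL1, which fell by 1.79, and reads of antisense genes and their partners cannot be told apart, since use of strand in counting was not given in the sources used here.

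In the remaining lists members moved in both directions, as did all protein-coding genes (23.1% higher and 29.9% lower). The 374 zinc finger ZNF genes gave 89 higher and 88 lower (median 0.05), and the median was -0.04 with GC and length offsets. The count Zinc finger ZNF genes, members higher, was 59 and 58 without one or the other WT library numbered 1. ZNF217 rose from 28.8 and 29.8 CPM to 65.3 and 66.3 CPM, and ZNF142, whose span overlaps BCS1L, fell from 83.2 and 63.1 CPM to 26.3 and 26.0 CPM. Of 23 aminoacyl-tRNA synthetase genes 4 rose and 4 fell, with 6 and 2 under GC and length offsets and 9 and 3 under upper-quartile scaling. Of 68 cullin and SCF parts 19 rose and 19 fell, with 12 lower under upper-quartile scaling, and the median of 0.01 was -0.05 with GC and length offsets. Among them, FBXO32 rose from 2.51 and 3.13 CPM to 10.6 and 11 CPM. FBXO31 fell by 1.21 and overlaps MAP1LC3B, which rose by 0.88. Of 67 translation factors 16 rose and 25 fell (median -0.06, and 0.04 under upper-quartile scaling). EEF1A1 rose from 1193 and 1735 CPM to 4274 and 3922 CPM and PDCD4, an inhibitor of eIF4A, from 38.6 and 45.1 CPM to 88.6 and 90.2 CPM. EEF1A1 has many retrocopies. Of 66 chromatin writers and erasers 22 fell and 12 rose (median -0.10). SUV39H1, an H3K9 methyltransferase, went from 35.7 and 32.2 CPM to 11.7 and 9.55 CPM, and KDM3A, an H3K9 demethylase, from 43.3 and 42.0 CPM to 88.5 and 89.9 CPM.

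Of 31 SWI/SNF and other remodeller genes 17 fell and 4 rose (median -0.27), and 11 fell without one or the other WT library numbered 1. ARID1A, a SWI/SNF subunit, went from 294 and 234 CPM to 129 and 128 CPM. Of 20 genes of purine and pyrimidine synthesis 9 fell and 2 rose (median -0.14; 5 rose with upper-quartile scaling), with UMPS, which makes UMP, at -1.02. Of 36 lysosome genes 16 fell and 8 rose, and the median of -0.03 turned to 0.06 with upper-quartile scaling. Of 20 amino acid transporter genes 9 fell and 6 rose, and of 23 genes of serine, glycine and folate metabolism 8 fell and 6 rose. Their medians of 0.01 and 0.07 turned to -0.08 and -0.07 with GC and length offsets. Of 31 junction and keratin genes 11 rose and 6 fell (median 0.03), and 1 fell with GC and length offsets. CLDN4, a tight junction claudin, went from 126 and 109 CPM to 227 and 213 CPM. Of 23 YAP and TEAD targets 6 rose and 6 fell (median -0.13, and 0.06 with GC and length offsets), with AMOTL2 at -1.32 and NT5E at 0.76. Of 17 genes of ERK feedback 8 rose and 4 fell, and 2 fell with GC and length offsets. Of 25 SNHG genes 9 rose and 7 fell (median -0.02, and 0.08 with those offsets and 0.07 with upper-quartile scaling), with SNHG5 at 0.75 and SNHG17 at -1.03.

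**Figure D4:**
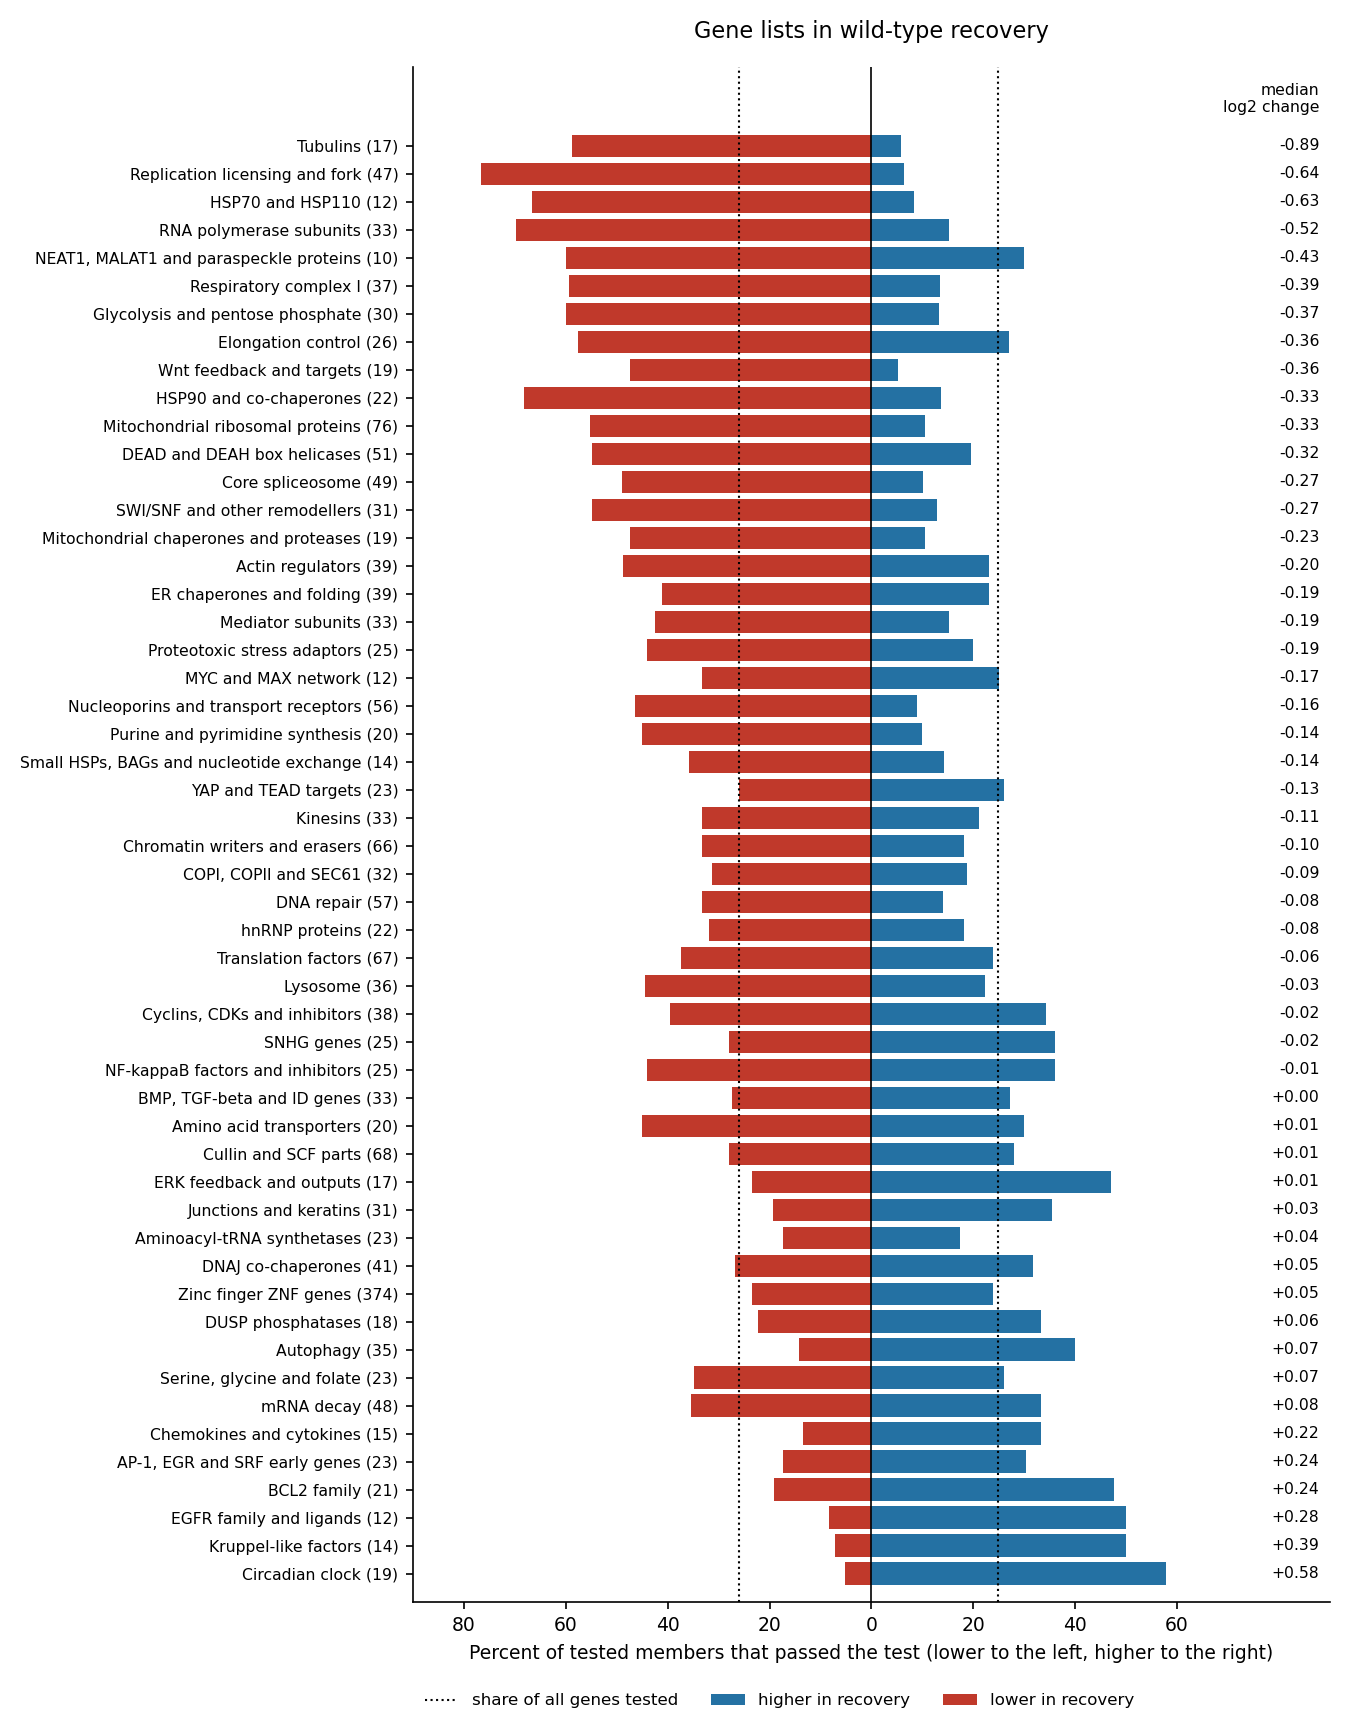
For each of 52 gene lists, with the number of members tested in parentheses, bars give the percent that fell (red, left) and rose (blue, right) in wild-type recovery, ordered by the median log2 change printed at the right. Dotted lines mark the shares of all genes, 26.0% and 24.8%, and tubulins (median -0.89) and circadian clock genes (0.58) are the ends of this order, which is without GC and length offsets.

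HSF1, HSF2 and FBXW7 themselves all passed the test, with changes of at most 0.67 on the log2 scale. HSF1 had 118 and 94.8 CPM at heat shock and 82.5 and 77.3 CPM at recovery (-0.41 ± 0.10), and with GC and length offsets it gave -0.15 and did not pass. Its span overlaps DGAT1. HSF2, a second heat shock factor, went from 17.3 and 21.6 CPM to 29.4 and 32.5 CPM (0.67 ± 0.11). FBXW7 went from 33.5 and 31.4 CPM to 23.0 and 21.7 CPM (-0.54 ± 0.11). For all 3 the groups did not overlap.

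Some genes depended on the replicate pair. Of the 8 with the largest difference between pairs, IGF2, a growth factor, had 338 and 136 CPM at heat shock and 62.7 and 66.4 CPM at recovery. CAPN12, whose span overlaps ACTN4, had 17.7 and 28.6 CPM and then 70.6 and 50.1 CPM. Both passed with both pairs in one direction, and their heat shock replicates were far apart. C12orf54 had 23.2 and 50.2 CPM and then 19.6 and 13.8 CPM, a fall carried by pair 2 that gave -0.24 and did not pass without one or the other WT library numbered 2. FKBP1C and EIF5AL1, both retrocopies, moved in opposite directions in the 2 pairs and did not pass with both pairs in the fit.

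The recovery response in WT cells was set against that in FBXW7 KO cells by the interaction in the same model. It differed for 9833 of 17471 genes (56.3%), with the WT change the lower one for 4979 (28.5%) and the higher one for 4854 (27.8%). Of the genes that rose in WT recovery, 7.25% rose and 42.2% fell in KO recovery, where 20.6% and 21.1% of all genes did. Of those that fell in WT recovery, 44.1% rose and 7.47% fell in KO. The GC trend, which ran in opposite directions in the 2 lines, moves with this difference, and its part was not tested. With GC and length offsets 8677 genes differed. Across genes, the WT and KO changes correlated at r = -0.287, as a description over genes measured in the same libraries.

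Some chaperone genes fell in WT and rose in KO recovery. HSPA1B changed by -2.81 in WT and 1.31 in KO, a difference of -4.12 ± 0.16. HERPUD1 and SDF2L1 differed by -3.46 ± 0.14 and -3.54 ± 0.19, and BANP by -3.59 ± 0.20. Over HSP70 and HSP110 genes the median change was -0.63 in WT and 0.09 in KO, and over tubulins -0.89 and 0.33. Circadian clock genes gave 0.58 and -0.12, with DBP at 2.47 in WT and -0.12 in KO (difference 2.59 ± 0.19). For NR1D1 and AREG no difference between the lines passed the test: it was 0.17 ± 0.14 (adjusted p = 0.299 in edgeR) and -0.03 ± 0.21 (adjusted p = 0.929), which does not show that the responses were equal. BHLHE40, DUSP5 and ZFP36 rose in both lines and more in KO, with differences of -0.72 ± 0.13, -1.09 ± 0.15 and -0.35 ± 0.14. NEAT1 rose in both and more in WT (1.15 ± 0.18).

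**Figure D5:**
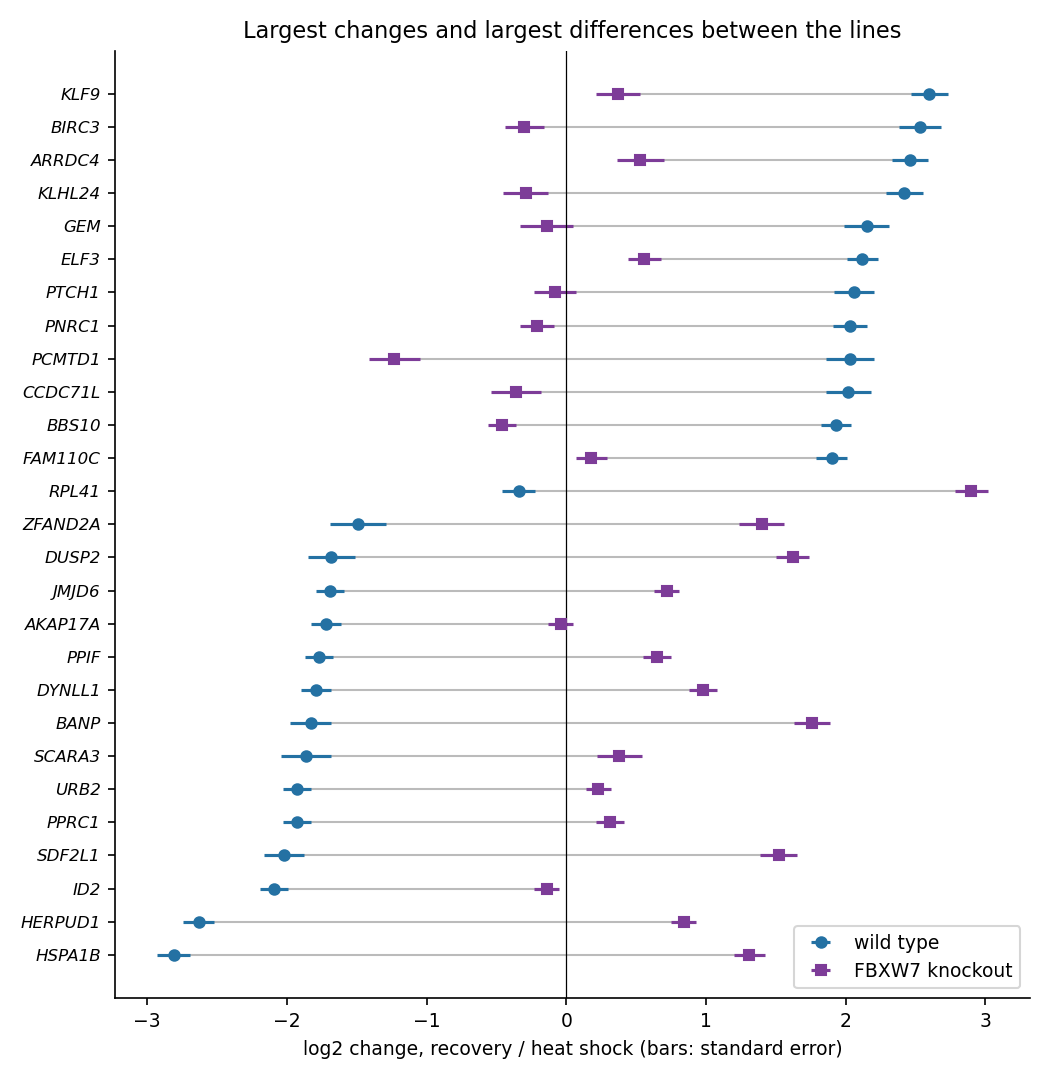
Log2 change in recovery with standard errors in wild-type (blue circles) and FBXW7 knockout cells (purple squares) for the 12 largest rises, the 12 largest falls and the 10 largest differences between the lines, with genes in more than 1 set drawn once. Most genes at the foot fell in wild type and rose in the knockout, as HSPA1B did (-2.81 and 1.31).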

How the data were processed

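Reads were mapped to hg19, and CASAVA and TopHat are named without versions per the submitters' processing notes. How reads were counted, and whether by strand, was not given in the sources used here. As deposited by the authors, 1 table per replicate pair held raw read counts per Ensembl gene for recovery and heat shock, their log2 fold changes, a score (the z-score of their own test of the 2 libraries), and p-values and q-values, per the file headers. Missing counts were set to 0. The 8 columns were joined over 55075 genes, 32200 of them with a read. Genes were filtered with filterByExpr and scaled by TMM, and edgeR 4.0.16 (R 4.3.3) fitted all 8 libraries with a block for each pair of same-numbered libraries, a recovery term for each line and their difference, which leaves 2 residual degrees of freedom. The pairing is that of the authors' deposited tables. Across genes the deviations of same-numbered WT libraries correlated at -0.0144. DESeq2 1.42.0, other scalings, filters and designs, leaving out each library, and loess offsets on transcript length and GC were alternatives. Biotype, length, GC and overlaps came from GENCODE on GRCh38, matched by gene ID (88.8% of IDs), and no coordinates were taken from it. Members and lists were chosen with earlier results of these data known. Named genes were the 12 largest rises and falls, up to 5 members of each of 52 lists by lowest p and members against the majority, HSF1, HSF2 and FBXW7, 8 genes differing between pairs, 10 differing from KO, 6 long non-coding RNAs each way, and the 10 highest per kilobase.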

Additional observations from a re-analysis of the deposited data

Results flagged for a closer look

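The recovery responses of WT and FBXW7 KO cells differed by the interaction test in edgeR for 9833 genes. Among protein-coding genes called in WT, the 10 with the largest difference (WT minus KO, log2) were the following. HSPA1B differed by -4.12, BANP by -3.59, SDF2L1 by -3.54, HERPUD1 by -3.46 and DYNLL1 by -2.77, and all 5 are among the largest falls in WT. The phosphatase gene DUSP2 differed by -3.30 and ZFAND2A, a heat-inducible zinc finger gene, by -2.90. RPL41, a ribosomal protein gene, differed by -3.23, from a WT change of -0.34 and a KO change of 2.90. PCMTD1 differed by 3.27 and BIRC3 by 2.84, and both are among the largest rises in WT.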

How the results depend on the processing

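Depth, GC content and the spread between the WT heat shock replicates limit these results. Counts of genes moved by over 1.5 times under 3 alternatives. With a mean count of at least 50, 537 genes rose and 396 fell at least 2-fold, and with protein-coding genes only, 593 and 398. With a tested minimum fold of 1.5, 1345 rose, 916 fell and 4989 differed between the lines. Leaving out 1 library gave 2922 to 4246 higher, 3641 to 4453 lower, 1102 to 1568 and 532 to 868 at least 2-fold, and 7640 to 9622 differing. With no replicate block, 4442 rose, 4603 fell, 1521 and 676 did so at least 2-fold, 9999 differed, and all 375 named genes kept direction and call. DESeq2 gave 2906 higher and 3238 lower. With GC and length offsets the sign turned for HSPA13 (-0.05), NUDCD1 (-0.01), POLR2K (-0.20), MED21 (-0.05), NUPL1 (-0.09), ERBB2 (0.01), NDUFV2 (-0.00) and NUDT21 (-0.03). Leaving out 1 library also turned signs: FKBP1C ran from -0.93 to 0.58 (0.57 and 0.58 with pair 1 alone complete), EIF5AL1 from -0.32 to 0.97 (-0.32 and -0.31 with pair 2 alone complete) and MT-CO3 from -0.42 to 0.43 (-0.42 and -0.41 with pair 2 alone complete). The cause was not tested.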
